A study of Mus musculus with 4 samples.

Results

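The 9 genes described here are targets of the transcription factor p53 that promote cell death: Pmaip1, Bbc3, Bax, Perp, Trp53inp1, Apaf1, Fas, Tnfrsf10b and Eda2r. They were taken by name from the probe annotation of the arrays, which gave 17 probes for the 9 genes, out of 41174 probes and 21900 named genes in all. Of these 17 probes, 13 were bright enough to be tested, with at least 1 for each of the 9 genes, and 4 were too dim. RNA came from pools of whole mouse embryos that were homozygous for V1330M, a missense allele of Btaf1 made with the mutagen ENU (written Btaf1-/- in the series text), and from pools of wild-type (Btaf1+/+) embryos. The BTAF1 protein uses ATP to strip TATA-binding protein off DNA. The embryos of every pool came from a C57BL/6J and FVB/NJ hybrid stock, 50 to 90% of it FVB/NJ, and had 3 to 5 somites where such embryos could be had, a stage chosen to lie before the mutants look abnormal. In the stage_matched set the pools were paired by somite number, and in the age_matched set litter mates were preferred, with up to 5 somites of difference. Each array carried a mutant pool in one dye and a wild-type pool in the other, and each set was hybridised first with Cy5 on the mutant (replicate 1), then in the reverse dye orientation (replicate 2). A set is thus 1 pair of pools read on both of its arrays, and n = 2 sets throughout. How many embryos made up a pool, and whether any embryo was used in both sets, is not stated in the labels. The p-values thus speak only for these pairs of pools. Their error joins the spread between the 2 sets with limma's prior, drawn from all tested probes. That prior weighs more (7.12 prior against 1 residual degree of freedom).

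p53 is held low in unstressed cells and accumulates when DNA, ribosomes or other processes are disturbed. It kills cells by inducing genes at several points of the death pathways. BH3-only proteins such as NOXA and PUMA release BAX at the mitochondrion, cytochrome c then assembles APAF1 into the apoptosome, and receptors of the TNF family such as FAS carry death signals from outside. The early mouse embryo is known to be sensitive to p53, and many mutants that disturb basic cell functions die with p53 active.

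The probes that matter most for what follows are those of Eda2r and Trp53inp1, whose probes disagreed in size of change, and those of Bax and Fas, which were spotted 10 times on each array. The opening 30 of the 60 bases of each are shown, from the scanner files, with capitals only where a stretch is repeated within the probe.
Eda2r A_52_P354844: acttatatcactggaatattgaaaggttgt
Eda2r A_52_P207163: atcttgactctactagcaactagtcatatt
Eda2r A_51_P161323: aatttggaagcaagcttaccttacattgta
Trp53inp1 A_51_P175580: gtgtgtttatgggcacaatgttttctctca
Trp53inp1 A_52_P503387: AGTACTAATACTTACCACAGCAGGCGagta
Bax A_51_P254541: cagatcatgaagacaggggcctttttgcta
Fas A_51_P345393: caactcctggtgtgttctctttgccagcaa
In the second Trp53inp1 probe the 26 bases in capitals recur directly after themselves, while in the other probes searched (all but that of Pmaip1) the longest run that recurred was 6 bases.

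The comparison of mutant with wild-type embryos asks which of these death genes differed at the stage before the phenotype shows. Of the 9 genes, 4 rose past the threshold at their brightest probe: Eda2r, Trp53inp1, Pmaip1 and Bbc3 (limma, adjusted p below 0.05 over all tested probes). None fell (0 of 13 tested probes, and 0 at an unadjusted p under 0.05). Among all 13805 tested genes, 2.11% rose and 2.77% fell at their brightest probe. The remaining 5 genes, Bax, Perp, Apaf1, Fas and Tnfrsf10b, had positive ratios of 0.15 to 0.34 on the log2 scale that did not pass. Counted by probe, 6 of 13 tested probes rose, against 1.66% of all 21940 tested probes, and 0 fell, against 3.14%. The count was 3 with no background correction, where 20 of all 21940 tested probes rose. Without age_matched replicate 1 the count fell too, as did that of all tested probes. With median centring in place of loess it was 6 again, against 0.547%, and all tested probes then split into 120 higher and 824 lower in place of 365 and 690. Of the 13, 11 were positive on all 4 arrays (12.5% of all tested probes) and 0 negative on all 4 (15.1%). Of the 13 probes, 2 had entered the test through the mutant dye alone, where they are brighter, so their rise was favoured by the filter. With probes required to be above background in both genotypes on every array, 4 of 11 rose, against 1.83% of 20399 probes. Ratios below are log2 of mutant over wild type with the SD between the 2 sets, and 95% intervals are limma's.

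**Figure D1:**
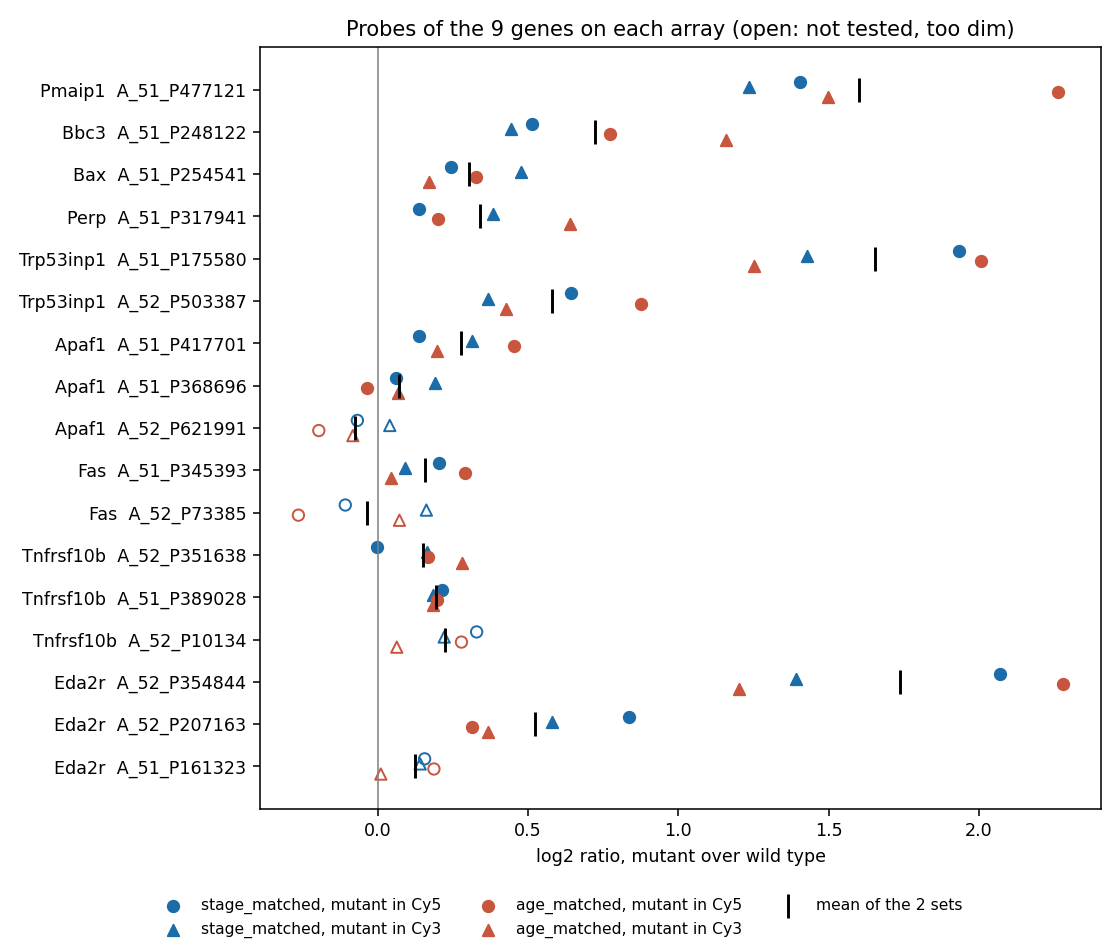
Log2 ratio of mutant over wild type (x axis) for the 17 probes of the 9 genes (rows) on each of the 4 arrays, coloured by set and shaped by the dye of the mutant, with the mean of the 2 sets as a bar and open symbols for probes too dim to test. Pmaip1, the first Trp53inp1 probe and the first Eda2r probe lie above 1.2 on every array, while the probes of Apaf1, Fas and Tnfrsf10b lie at or below 0.46.

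Pmaip1 encodes NOXA, a BH3-only protein that neutralises the survival protein MCL1. Its probe (A_51_P477121, chromosome 18, 66625088 to 66625147, plus strand, mm9) read 1.41 and 1.24 on the stage_matched pair of arrays, and 2.26 and 1.5 on the age_matched pair. All 4 arrays were high, and the age_matched array with the mutant in Cy5 was the highest. The mean was 1.6 ± 0.40 (SD, n = 2 sets), 3.03-fold, with limma adjusted p = 0.00215 and rank 5 among the rises of all tested probes. In signal, the wild-type pools read from 9.63 to 10.27 log2 units and the mutant pools from 11.03 to 12.12. The age_matched mean of 1.88 exceeded the stage_matched mean of 1.32 by 0.56 (SE 0.18), which did not pass after adjustment (limma, set and dye terms, adjusted p = 0.0611). The call held without any 1 array, with ratios from 1.41 to 1.79.

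Bbc3 encodes PUMA, the BH3-only protein that binds all the survival members of the BCL2 family. It read 0.51 and 0.44 on the stage_matched pair of arrays, and 0.77 and 1.16 on the age_matched pair (A_51_P248122, chromosome 7, 16903403 to 16903462, plus strand, mm9). Both age_matched arrays were above both stage_matched arrays. The mean was 0.72 ± 0.34 (SD, n = 2 sets), 1.65-fold, with limma adjusted p = 0.0230. The wild-type signal stayed between 9.75 and 9.94 on the 4 arrays, while the mutant signal was 10.25 to 10.26 in the stage_matched and 10.71 to 10.93 in the age_matched pools. The set difference of 0.49 (SE 0.18) did not pass (limma adjusted p = 0.140). This rise lost its call without age_matched replicate 1 (0.82, limma adjusted p = 0.185), without background correction (0.68, limma adjusted p = 0.0737) and with no filter on dim probes (limma adjusted p = 0.0542).

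**Figure D2:**
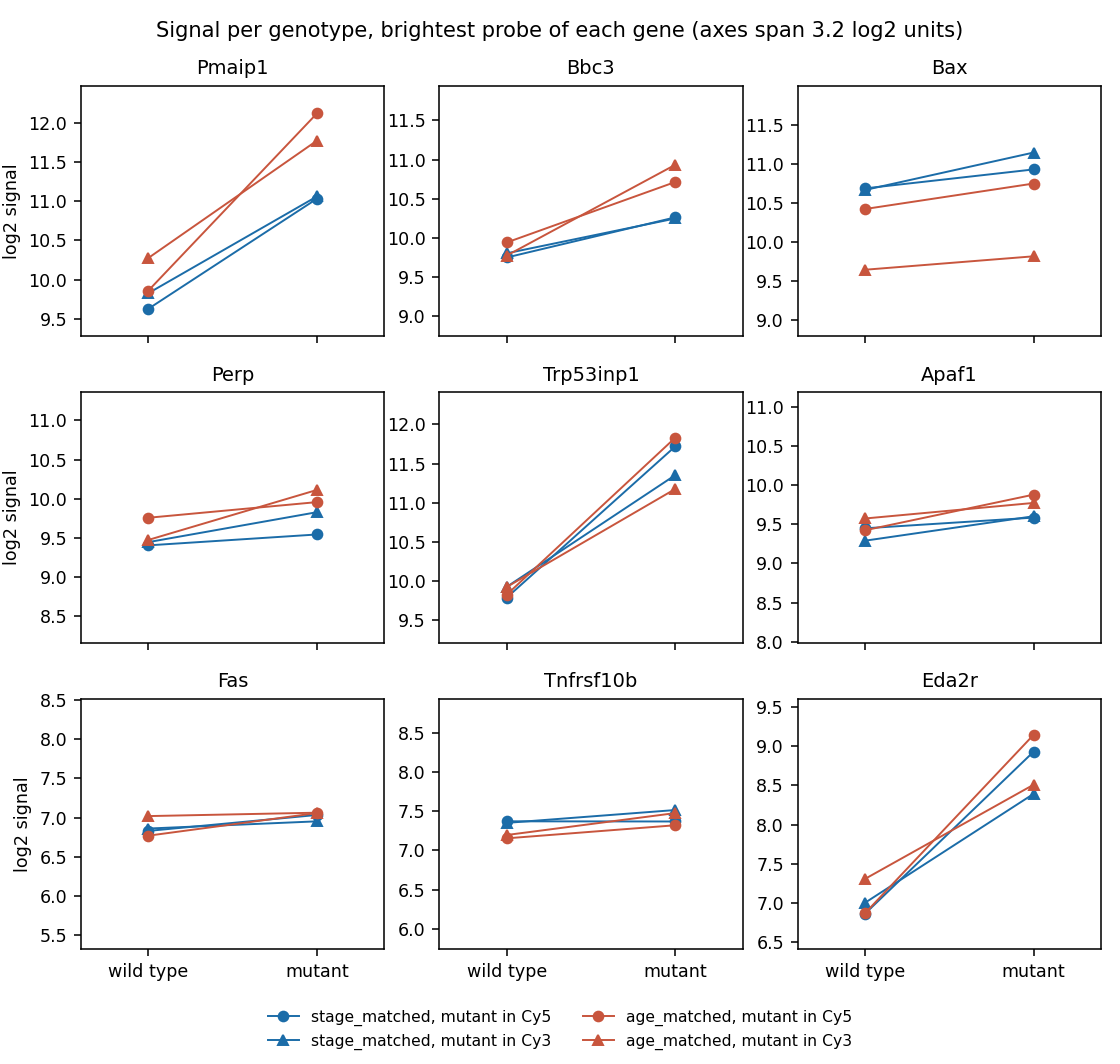
Log2 signal per genotype (y axis, each panel spanning 3.2 units) for the brightest probe of each of the 9 genes, with a line joining the wild-type and the mutant pool of each array. Wild-type and mutant signals do not overlap for Pmaip1, Bbc3, Trp53inp1, Eda2r and Apaf1. For Apaf1, whose ratio did not pass, the margin is narrow (wild type up to 9.57, mutant from 9.59). How many of all tested probes separate in this way was not counted. Bax is low in both genotypes on age_matched replicate 2.

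Bax, the pore-forming protein of the mitochondrial outer membrane on which NOXA and PUMA converge, was positive on 4 of 4 arrays but did not pass. Its probe (A_51_P254541, chromosome 7, 52721469 to 52721624, minus strand, mm9) has 60 bases that span 156 bases of the genome. The array means over 10 spots were 0.24 and 0.48 in the stage_matched set, and 0.33 and 0.17 for age_matched. The spots of 1 array spread with an SD of 0.16, 0.084, 0.12 and 0.093 in the same order, and on stage_matched replicate 1 a single spot read -0.15 where 9 were positive. The mean of 0.30 ± 0.079 (SD, n = 2 sets; 95% interval 0.09 to 0.52) had limma adjusted p = 0.104 and ranked 999. On age_matched replicate 2 the Bax signal was 9.65 in wild type and 9.82 in mutant, below the 10.42 to 11.14 of the other arrays in both genotypes, and the ratio there was the lowest of the 4.

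Perp, a membrane protein of the PMP22 family that p53 induces and that also serves in desmosomes, read 0.14 and 0.38 in the stage_matched set, and 0.20 and 0.64 for age_matched. The lower value of each set was the one with the mutant in Cy5. The mean was 0.34 ± 0.11 (SD, n = 2 sets; 95% interval 0.12 to 0.56), with limma adjusted p = 0.0826 (A_51_P317941, chromosome 10, 18576697 to 18576756, plus strand, mm9). With each gene given the mean of its tested probes, and thus the model fitted over genes, the same Perp ratio passed (limma adjusted p = 0.0423); fitted over the brightest probe of each gene it did not (limma adjusted p = 0.0962).

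Trp53inp1 encodes a stress protein that aids p53 in the nucleus and acts in autophagy in the cytoplasm. Its brighter probe (A_51_P175580, chromosome 4, 11101174 to 11101233, plus strand, mm9) read 1.93 and 1.43 in the stage_matched set, and 2.01 and 1.25 for age_matched. In both sets the array with the mutant in Cy5 gave the higher ratio, by 0.63 on average, and the set means of 1.68 and 1.63 were close. The mean was 1.65 ± 0.036 (SD, n = 2 sets), 3.15-fold, with limma adjusted p = 0.000552 and rank 4. The small SD between sets leaves out the dye gap, and single arrays ran from 1.25 to 2.01. Wild-type signal ran from 9.79 to 9.93 and mutant signal from 11.18 to 11.83.

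The other Trp53inp1 probe, with the repeated 26 bases, lies 2.99 kb upstream of it on the plus strand (11098180 to 11098239). It was above background on 3 of 4 arrays in wild type. It thus entered the test through the mutant dye alone, and the filter favoured its rise. It read 0.64 and 0.37, then 0.88 and 0.43, again higher with the mutant in Cy5. Its mean of 0.58 ± 0.10 (SD, n = 2 sets; 1.49-fold) passed (limma adjusted p = 0.0210), but lost its call without background correction (0.43, limma adjusted p = 0.0723) and without stage_matched replicate 1 (0.51) or age_matched replicate 1 (0.47).

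Apaf1, the scaffold of the apoptosome that activates caspase-9, had 3 probes. The brightest (A_51_P417701, chromosome 10, 90452580 to 90452639, minus strand, mm9) read 0.14 and 0.31 in the stage_matched set, and 0.46 and 0.20 for age_matched, with a mean of 0.28 ± 0.072 (SD, n = 2 sets; 95% interval 0.06 to 0.49; limma adjusted p = 0.130). A probe 1.27 kb away (A_51_P368696) was dim and read 0.07, with 1 of 4 arrays negative (limma adjusted p = 0.707). The third (A_52_P621991) was above background on 0 of 4 arrays in either genotype and was not tested.

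Of the death receptors, Fas and Tnfrsf10b did not pass. Fas carries a death domain that recruits FADD and caspase-8. It was read by 10 spots of A_51_P345393 (chromosome 19, 34401902 to 34401961, plus strand, mm9), which averaged 0.20 and 0.09 in the stage_matched set, and 0.29 and 0.04 for age_matched. The arrays with the mutant in Cy5 were the higher ones, with all 10 spots positive on each; with the mutant in Cy3, 7 and 5 of 10 were positive. The mean was 0.16 ± 0.013 (SD, n = 2 sets; 95% interval -0.05 to 0.37; limma adjusted p = 0.351). The small SD between sets leaves out this dye gap of 0.18. A second Fas probe was above background on 0 arrays. The Fas probe lies 2.68 Mb from the probe of Btaf1, on the same chromosome, and whether strain sequence around the mutated gene bears on its reading was not tested.

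**Figure D3:**
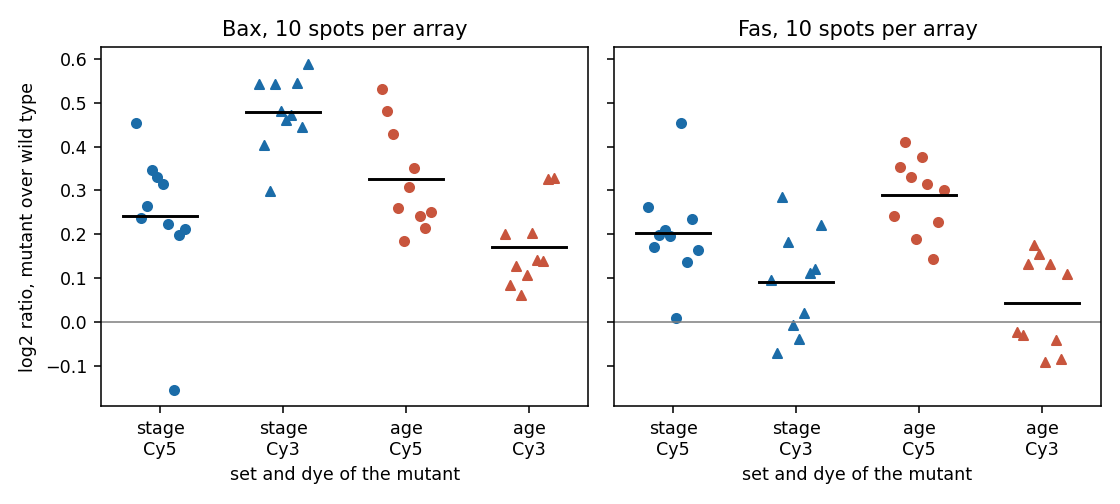
Log2 ratio of mutant over wild type (y axis) at each of the 10 spots of the Bax probe (left) and the Fas probe (right) on the 4 arrays (x axis, by set and dye of the mutant), with the mean as a bar. Bax spots are positive except for 1 on stage_matched replicate 1, and Fas spots straddle 0 on the arrays with the mutant in Cy3.

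Tnfrsf10b encodes the mouse receptor for the death ligand TRAIL. Its 2 tested probes (A_52_P351638, chromosome 14, 70177538 to 70177597, and A_51_P389028, 70175991 to 70176048, plus strand, mm9) had means of 0.15 ± 0.10 and 0.19 ± 0.0044 (SD, n = 2 sets). The second of these read 0.21, 0.18, 0.20 and 0.18, the tightest agreement of the 13 tested probes across arrays. Neither passed (limma adjusted p = 0.385 and 0.251), and the 95% intervals reached 0.37 and 0.40. The third probe (A_52_P10134) was above background on 1 array in the mutant and 0 in wild type.

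Eda2r encodes a receptor of the same family for the A2 form of ectodysplasin, which lacks a death domain and signals through TRAF proteins. Its brightest probe (A_52_P354844, chromosome X, 94529458 to 94529517, minus strand, mm9) read 2.07 and 1.39 in the stage_matched set, and 2.28 and 1.20 for age_matched. All arrays were high, and those with the mutant in Cy5 exceeded those with it in Cy3 by 0.88 on average, the widest dye gap among the 17 probes. The mean was 1.74 ± 0.0076 (SD, n = 2 sets), 3.33-fold, with limma adjusted p = 0.000545, rank 2 among all tested probes, below Ccng1 alone. The small SD between sets leaves out the dye gap, and single arrays ran from 1.20 to 2.28. Wild-type signal was 6.86 to 7.31 and mutant signal 8.39 to 9.15.

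Of the other Eda2r probes, A_52_P207163, 4.42 kb away, was above background on 4 arrays in the mutant and on 1 in wild type. It too entered the test through the mutant dye alone, and the filter favoured its rise. It read 0.84 and 0.58 in the stage_matched set, and 0.31 and 0.37 for age_matched, with a mean of 0.52 ± 0.26 (SD, n = 2 sets; limma adjusted p = 0.0403). That call ended without background correction (0.33, limma adjusted p = 0.116), with no filter on dim probes (limma adjusted p = 0.0691) and without stage_matched replicate 1 (0.46) or either age_matched array (0.54 without replicate 1, 0.51 without replicate 2). The call held with median centring (0.54, limma adjusted p = 0.0392) and without stage_matched replicate 2 (0.59). On processed signals it held at a higher ratio (limma adjusted p = 0.000594). The probe between them (A_51_P161323, 1.86 kb from the brightest) was above background on 0 arrays and was not tested.

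Because Eda2r is X-linked, the sex makeup of the pools is given beside it. Xist, the RNA of the inactive X chromosome, read -1.0 in the stage_matched and 0.77 in the age_matched pools (limma set difference 1.78, adjusted p = 2.66e-16). This difference did not pass without background correction, where 0 of all tested probes did, and with median centring 1 probe passed. The Y-linked Ddx3y went from 0.41 to -0.85. Eda2r read 1.73 and 1.74 in these same sets, a difference of 0.01 (SE 0.18). Whether the sex makeup bears on the Eda2r reading was not tested, as it changed together with the way the pools were matched. None of the 13 tested probes differed between the sets after adjustment (0 by limma, against 2.31% of all tested probes; 3 at an unadjusted p under 0.05, namely Pmaip1, Bbc3 and the second Eda2r probe). That error comes from dye-exchanged arrays of the same pools and is technical.

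How the signals were processed moved the dim probes most. In the authors' deposited table, which holds the log10 ratios of the scanning software, the brightest Eda2r probe was 6.60-fold higher in mutants, against 3.33-fold here. No fold is read from the second probe, which was above background in wild type on 1 of 4 arrays. Pmaip1 was 3.23-fold and the brighter Trp53inp1 probe 3.34-fold in the authors' deposited table, close to the 3.03-fold and 3.15-fold here. Tested on the processed signals, the brightest Eda2r probe had a log2 ratio of 2.72, and Fas read 0.44 in place of 0.16 without passing (limma adjusted p = 0.0604). With no background correction the brightest Eda2r probe read 1.38. Its log2 ratio thus ran from 1.38 to 2.72 over the 5 other settings tried, and it passed under 5 of 5.

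**Figure D4:**
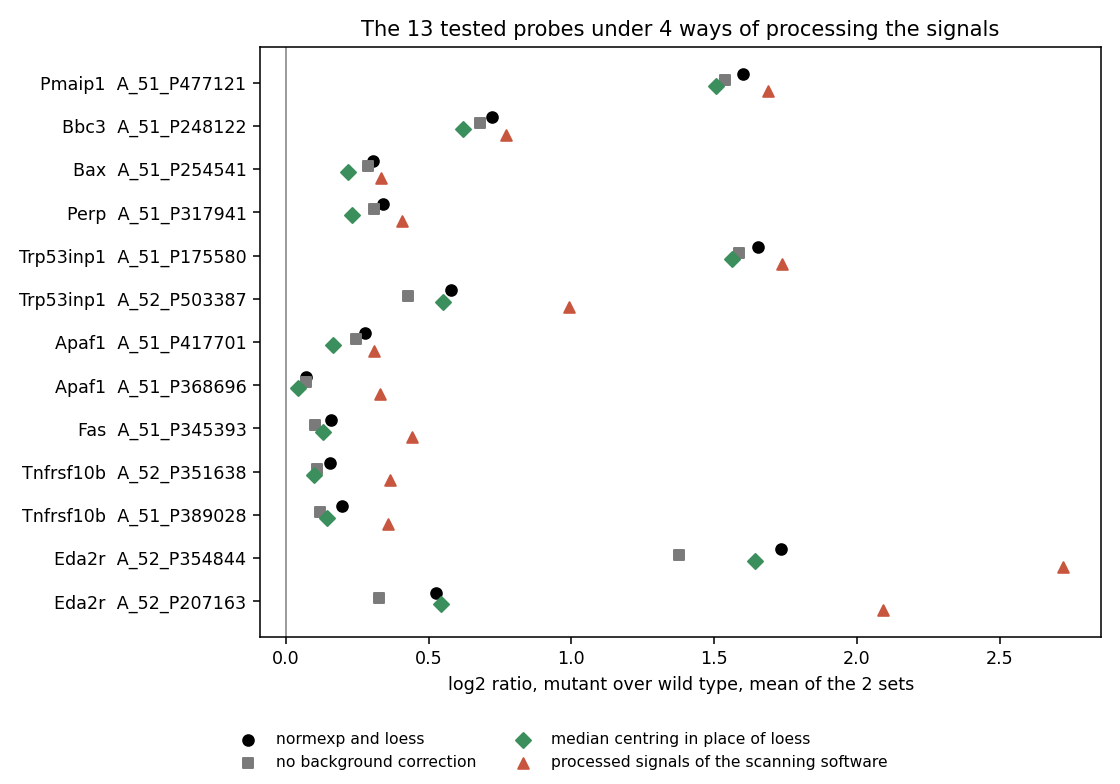
Mean log2 ratio of mutant over wild type (x axis) at the 13 tested probes (rows) under 4 ways of processing the signals, marked by colour and shape. The bright probes of Pmaip1 and Trp53inp1 stay within 1.51 to 1.74, while the brightest Eda2r probe runs from 1.38 to 2.72.

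Promoter sequence was at hand in RefSeq (GRCm38.p6) for 5 of the 9 genes, Bax, Bbc3, Apaf1, Fas and Eda2r, with 7 starts in all; Pmaip1, Perp, Trp53inp1 and Tnfrsf10b had no entry. The 250 bases before each start were searched on both strands for the p53 half-site motif. It was present in 1 of the 7 windows, that of Bax, and in 7.13% of all 32851 windows of this length. The windows of Bax (chr7:45466899-45467148, minus strand) and of Eda2r (chrX:97377210-97377459, minus strand), the gene with the highest ratio of the 9, are shown 5′ to 3′ with the half-site in capitals.
Bax: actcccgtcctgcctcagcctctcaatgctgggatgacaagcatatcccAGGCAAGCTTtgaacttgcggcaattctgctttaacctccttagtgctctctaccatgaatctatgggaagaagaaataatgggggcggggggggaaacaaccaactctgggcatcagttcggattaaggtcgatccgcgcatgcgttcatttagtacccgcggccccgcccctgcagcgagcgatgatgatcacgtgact
Eda2r: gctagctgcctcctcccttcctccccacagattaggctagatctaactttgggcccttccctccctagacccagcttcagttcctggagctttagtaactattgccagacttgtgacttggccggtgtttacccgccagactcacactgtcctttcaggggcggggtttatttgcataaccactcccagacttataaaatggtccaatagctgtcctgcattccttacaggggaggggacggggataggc
The Bax match lies 201 to 192 bases before the start. It is a match of letters in this window and nothing more, and the windows without one say only that these letters are not in them.

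The genes around the 9 were taken from lists of pathway partners and read at their brightest tested probe. Among 20 tested other p53 targets, 6 rose and 0 fell, against 2.11% and 2.77% of all tested genes. Their median was 0.28, against 0.02 for all tested genes. Ccng1 (cyclin G1, 1.87 ± 0.045), Phlda3 (an inhibitor of AKT, 1.49 ± 0.43) and Ddit4l (an inhibitor of mTOR, 1.20 ± 0.040) were highest (SD, n = 2 sets). These SDs leave out the dye, and single arrays ran from 1.54 to 2.26 for Ccng1 and from 0.87 to 1.57 for Ddit4l. Phlda3 was higher in the age_matched set by 0.60 (limma set difference, adjusted p = 0.0330). Mdm2, the ubiquitin ligase that degrades p53, rose by 0.40 (limma adjusted p = 0.0493). Of 9 tested further targets linked to death, Zmat3, an RNA-binding protein, was the 1 that rose (0.97 ± 0.41, SD, n = 2 sets; limma adjusted p = 0.0145); its set difference of 0.58 also passed (limma adjusted p = 0.0448). Neither set difference passed without background correction, where 0 probes did, and with median centring 1 probe of the whole array passed. Aen, an apoptosis-enhancing nuclease, read 0.08, and Pidd1, the scaffold of the PIDDosome, read 0.04.

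The partners through which the 9 proteins act showed few calls. For the unadjusted counts given here and in the next paragraph, 3127 of all 13805 tested genes had an unadjusted p under 0.05 (limma). Among 11 tested BCL2 family partners 0 passed (limma; 2 at an unadjusted p under 0.05), with a median of -0.08 and a range from -0.30 (Bok) to 0.22 (Bid). The survival genes Mcl1 and Bcl2l1 read -0.08 and -0.01, and Bak1, the other pore former beside Bax, read -0.18. Casp9, the caspase that APAF1 activates, read 0.11 (limma adjusted p = 0.603). Of 9 tested adaptors of the death receptors 0 passed (limma; 0 at an unadjusted p under 0.05), with Fadd at 0.11 and Casp8 at 0.04. The ligands Fasl, Tnfsf10 and Eda were too dim to test. Among 13 tested other TNF receptors 0 passed (limma; 2 at an unadjusted p under 0.05), and the highest, Tnfrsf19, read 0.32 with limma adjusted p = 0.0957.

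Among 5 tested relatives of Perp or Trp53inp1, 1 rose, against 2.11% of all tested genes. It was Emp1, a membrane protein of the Perp family, at 0.40 (limma adjusted p = 0.0478). Among 10 desmosome and epithelial partners of Perp 0 passed (limma; 3 at an unadjusted p under 0.05), with Dsp (desmoplakin) at 0.27 and Trp63, the p63 factor of epithelia, at -0.30.

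**Figure D5:**
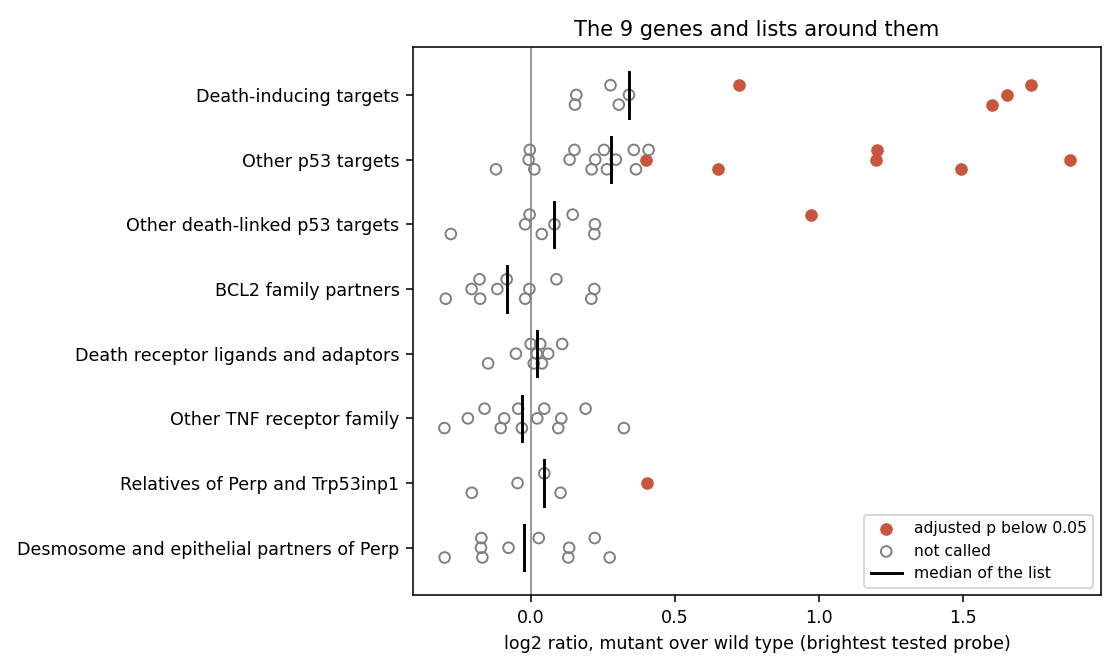
Log2 ratio of mutant over wild type (x axis) at the brightest tested probe of each gene in the 9 death-inducing targets and in 7 lists around them (rows), filled where the adjusted p was below 0.05, with the median of each list as a bar. The filled points lie to the right of 0.39 in every row that has any.

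The 3 genes whose ratios over the 4 arrays lay nearest to those of Eda2r, by Euclidean distance among all tested genes, were Trp53inp1 (0.31), Ccng1 (0.58) and Pmaip1 (0.74). For Trp53inp1 they were Eda2r (0.31), Ccng1 (0.55) and Pmaip1 (0.66). The ratios were not centred, so nearness reflects mainly a like height of rise, and these 4 genes are among the highest rises of all. The 4 genes share the arrays and the higher ratio with the mutant in Cy5.

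Marker transcripts of several tissues differed between the genotypes. For comparison, 2.11% of all 13805 tested genes rose, 2.77% fell, and 3127 had an unadjusted p under 0.05 (limma). Markers of visceral endoderm and yolk sac fell in 8 of 8 cases (median -1.06, from -1.64 to -0.45) and markers of heart muscle in 6 of 6 (median -1.37). For heart the stage_matched pools had a median of -0.84 and the age_matched pools one of -1.88, and the median of the primitive red cell markers was -0.74 and -1.64. Prl8a2, a marker of the maternal decidua, read -0.94 and 0.51 in the same order (limma set difference, adjusted p = 2.74e-11). That difference did not pass without background correction. The rest of the decidua list did not share this swing. Des read 0.02 and -0.53, Igfbp1 -0.24 and -0.16, and Dcn -0.22 and 0.03, and none of these set differences passed. Of 4 tested primitive red cell markers 2 fell, and of 5 tested somite markers 2 rose. Markers of surface ectoderm, where Perp is known to act, had 0 of 5 past the threshold (limma; 2 at an unadjusted p under 0.05). Ptprc, Adgre1 and Tyrobp of immune cells were too dim to test, and the remaining 3 of that list had a median of -0.06. The part of these shifts in the values of the 9 genes was not tested, and in whole embryos more cells with a transcript and more of it per cell cannot be told apart.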

How the data were processed

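Per the file headers, the authors' scanner files hold unnormalized mean spot and median background intensity per dye, and processed intensity that the software had background-subtracted, detrended and dye-normalized. The deposited log10 ratio is processed Cy5 over Cy3; the value table holds it with the sign turned on dye-exchanged arrays (difference at most 5e-06, medians 0, 0 columns left over). Per the submitters' processing notes the software was Feature Extraction 9.5.3, per the file headers 10.5.1.1. No spot was saturated (0), none of the spots of these genes was marked as an outlier (0), and 52.9% to 59.6% of 43379 spots per channel were well above background, which with 4 arrays limits the precision. All arrays lay on 1 slide, scan 1.

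Intensities were corrected with limma 3.58.1 in R 4.3.3 (normexp, offset 50; loess within arrays, control and marked spots at weight 0), signs turned, spots of a probe averaged, and arrays of a set averaged. Probes well above background in either genotype on all 4 arrays (in most of a probe's spots) were tested with limma against 0 on the 2 sets (1 residual and 7.12 prior degrees of freedom), two-sided, Benjamini-Hochberg over 21940 probes, threshold 0.05. Sets were compared on 4 arrays with set and dye terms. Signals per genotype were taken after Aquantile scaling. The model was tested on simulated data. A gene is read at its brightest tested probe; 25097 probes were named by accession, 156 by another accession and 9443 by the file's symbol. All probes of the 9 genes are reported, and at most 3 called genes each way per list, plus role genes chosen after their values were seen. The members and lists were chosen with earlier results of these data known. Alternatives were background, normalization, filter, single arrays left out, and gene means. One further list of pathway genes is not reported here.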

Additional observations from a re-analysis of the deposited data

How the results depend on the processing

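With no background correction limma called 20 probes higher and 42 lower over the whole array, and 3 of the tested probes of the 9 genes; with median centring 120 were higher, with processed signals 747 higher and 1077 lower, and with dim probes kept in the test 209 and 386. Leaving out 1 array at a time gave 10 to 393 higher, 13 to 814 lower and 3 to 6 higher among the tested probes of the 9 genes, the lowest each time without age_matched replicate 1; the cause was not tested. Such a fit leaves 1 set in 1 dye orientation and assumes that this set varies like the other. Probes that differ between the sets numbered 0 without background correction, 1 with median centring and 150 with processed signals, in place of 507. The set differences of Phlda3, Zmat3, Xist and Prl8a2 thus did not pass without background correction. Over all the alternatives, 175 of the values for single probes and genes of the 9 stayed on their side of the threshold, 11 lost a call and 1 gained one; no mutant over wild-type ratio turned its sign. All the lost calls fell on Bbc3, the second Trp53inp1 probe and the second Eda2r probe. Most of the values that stayed were of probes or set differences without a call in the main setting, so they had none to lose. Signal close to background limits Eda2r, Fas and Tnfrsf10b. Mutant and wild type were paired on each array, so the ratios tested are paired differences. The replicate number marks only the dye orientation and gave no further pairing.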
